A study of Drosophila melanogaster with 30 samples.

Results

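The heads of 5 aged male flies that still slept normally (aged NSF) were compared with the heads of 5 young male flies, which also slept normally, over every gene with enough reads to test. These 10 libraries are 10 of the 30 in the series, and 9088 of its 17559 genes passed the filter on low counts. Each library is the poly(A) RNA of the head of 1 fly. Aged NSF flies were 25 days old, and young flies were 5 days old. All of them carried the genotype Cantonized w1118, which lacks a working white gene, were kept at 25 °C with 12 h of light a day, and had been through a sleep assay. The white gene itself (w) had 1 read in all aged NSF heads together and 12 reads in all young heads. The remaining libraries are the bodies of such flies and the heads and bodies of aged flies with fragmented sleep (aged SF), used here only where a comparison needs them. A head sampled whole mixes brain, compound eyes, fat body, muscle, trachea and cuticle, so fewer cells of a type and less RNA per cell cannot be told apart.

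A fly head at 25 days belongs to a mid-aged adult. Neurons and photoreceptors are formed before the adult emerges and are not replaced, so their long-term function rests on protein folding, DNA repair, membrane upkeep and a steady energy supply. The fat body of the head stores fuel, secretes immune and carrier proteins into the blood and makes hormone-responsive enzymes, and glia pass sugars and ions to neurons.

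Total counts ranged from 1712101 to 3099585 in aged NSF heads and from 1685034 to 3597530 in young heads. Levels are in CPM, read counts set to a common library total after scaling with TMM factors. The limit that a count of 0 allows, 3 reads, equals 0.834 to 1.78 CPM by total counts alone. That limit leaves out the TMM factors, which were 0.839 to 1.07 in these libraries, so it is approximate for the levels given. Floors and standard errors cover counting error and the spread between these flies only. The libraries carried the markers of their labelled tissue: summed photoreceptor markers (6 genes) came to 30208 to 37733 CPM in aged NSF heads and 37098 to 57794 CPM in young heads, and summed neuronal markers (5 genes) to 1980.2 to 2452 CPM in aged NSF heads and 1954 to 3229 CPM in young heads. Markers of testis (6 genes) and midgut (5 genes) summed to at most 8.37 and 6.48 CPM in any of these heads. Oenocyte markers (2 genes) summed to 5.92 to 11.6 CPM in aged NSF heads, but to 102 CPM in young head 4 and 27.5 CPM in young head 5. Young heads 1, 2 and 3 had 7.40, 6.94 and 2.59 CPM of them. Accessory gland markers (4 genes) reached at most 14.2 CPM, in young head 4. The first principal component held 47.7% of the variance and separated aged NSF from young heads, and young heads 1 and 4 lay farthest apart on the second (11.7%).

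Many genes changed with age in each direction. By edgeR's quasi-likelihood test with Benjamini-Hochberg adjustment, 2075 genes differed between aged NSF and young heads (22.8%) at an adjusted p under 0.05. Of these 1032 rose (11.4% of the genes tested) and 1043 fell (11.5%). At least a 2-fold change was seen in 883 of them (9.72%), of which 522 rose and 361 fell. The median size of a called change was 0.90 on the log2 scale, and the median over all genes, which TMM scaling centres near 0, was 0.02. The aged NSF and young groups did not overlap at all in 1448 genes (15.9%). The authors' deposited table lists 2063 genes for this comparison, 1025 with a positive and 1038 with a negative log2 value.

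The highest-ranked increases by adjusted p were not confined to peptides of the humoral defence. CG13646 (FBgn0039255), known here by its ID alone, stood at 81.2, 84.9, 59.0, 59.2 and 50.2 CPM in aged NSF heads, against 0.463, 0.278, 0.648, 0.506 and 0 CPM in young heads. All aged NSF heads together held 900 reads of it and all young heads 4, so it was nearly absent at 5 days. CG13117 (FBgn0032140, chromosome 2L, 9736645 to 9737949, plus strand), likewise known by its ID alone, had 383, 335, 345, 460.1 and 459 CPM in aged NSF heads, against 67.1, 73.0, 72.5, 74.8 and 71.8 CPM in young heads. Each aged head lay far above each young head, and the young heads were within a narrow range of each other (log2 fold change 2.46 ± 0.13 SE, edgeR adjusted p = 3.48e-13).

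Of the called genes that bear a name and average 10 CPM or more, those with the largest increases were SPH93, AttD, CecB, edin, IM23, Drs, PGRP-SC2, Pcp, CecA2 and CecA1, and most of these are immune-induced. SPH93, a serine protease homologue, had 116, 101, 96.6, 131 and 119 CPM in aged NSF heads, and 1 read was counted in all young heads together. Of 14 antimicrobial peptide genes 13 rose and 0 fell (median log2 fold change 4.54), beside 11.4% and 11.5% of all genes. Their summed level was 24541, 23892, 13926, 46010.5 and 49307 CPM in aged NSF heads, against 677, 757, 549.9, 435 and 7755 CPM in young heads. Young head 5 stood far above the other young heads and below every aged head, and without it 13 rose with a median of 6.51. Without any other single head the count was 10 rising, save for aged NSF head 3 (13), and the median was 4.25 to 4.70. CG18067, named Bbd in the current annotation, was among the genes with the largest gain in CPM (4337 ± 2719.6 CPM in aged NSF heads and 396 ± 47.1 CPM in young heads, SD, n = 5 each). Pcp, a pupal cuticle protein gene that lies in an intron of a purine synthesis gene, had 27.2, 37.9, 13.9, 81.4 and 46.6 CPM in aged NSF heads, against 0, 1.11, 0, 1.52 and 0 CPM in young heads. Young heads were at 0 or near the limit of detection, and every aged head lay above them.

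The largest falls among such genes were Lsp1beta, tobi, Lsp2, Nplp3, sug, Odc1, Diedel, Cpr72Ec, TotX and Cpr49Ag. They include fat body storage proteins, a glucosidase (tobi), a sugar-responsive transcription factor (sug), the rate-limiting enzyme of polyamine synthesis (Odc1) and cuticle proteins. Odc1 had 4.98, 4.43, 4.84, 6.66 and 1.20 CPM in aged NSF heads, against 55.0, 46.1, 69.95, 45.5 and 38.1 CPM in young heads. The groups did not overlap, and every aged head was far below every young head (log2 fold change -3.45 ± 0.50 SE, edgeR adjusted p = 7.77e-05). Cpr49Ag, which encodes a chitin-binding cuticle protein, had 11.9, 10.6, 3.63, 10.7 and 17.3 CPM in aged NSF heads, against 76.3, 91.4, 81.6, 56.1 and 71.0 CPM in young heads, again without overlap (log2 fold change -2.84 ± 0.26 SE, edgeR adjusted p = 1.29e-08). Lsp1beta, a storage protein of the fat body, had 41.7, 34.4, 9.99, 6.66 and 0.598 CPM in aged NSF heads, against 639, 345, 219.6, 857 and 371 CPM in young heads. It was lowest in aged NSF head 5, and every aged head was below every young head. Lsp2 overlaps another gene over 84.6% of its exons. The most abundant transcript that fell was mt:lrRNA, the large ribosomal RNA of the mitochondrion, at 41757 ± 7039.6 CPM in aged NSF heads and 98251 ± 26034 CPM in young heads (SD, n = 5 each).

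**Figure D1:**
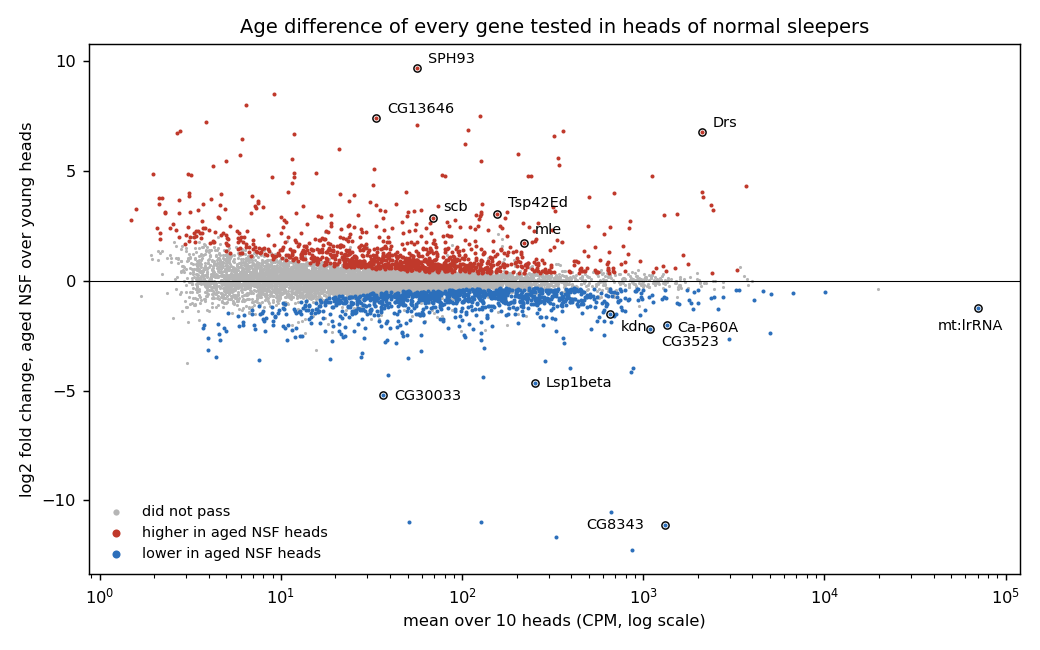
Each point is 1 of the 9088 genes tested, with its mean level over the 10 heads in CPM on a log axis and its log2 fold change, aged NSF over young, on the other axis. Red points (1032 genes) passed the test higher in aged NSF heads, blue points (1043) lower, and grey points did not pass; circled genes are named in the text.

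The share of genes that fell grew with abundance, whereas the share that rose did so less. In the fifth of genes with the lowest mean, 8.47% rose and 2.64% fell, and in the fifth with the highest mean 13.9% rose and 27.0% fell. Counting error is largest in the first of these. By chromosome, 13.9% of genes on arm 2R rose and 9.37% of those on the X. Chromosome 4 had few increases: 1 of 84 genes rose (1.19%) and 10 fell (11.9%), ATPsyn-beta among them. The genes of chromosome 4 that rose numbered 3 without aged NSF head 1, 2 without aged NSF head 3 and 2 without young head 1, 3 or 4, and those that fell 6 without aged NSF head 3. These shares are descriptions without a test.

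**Figure D2:**
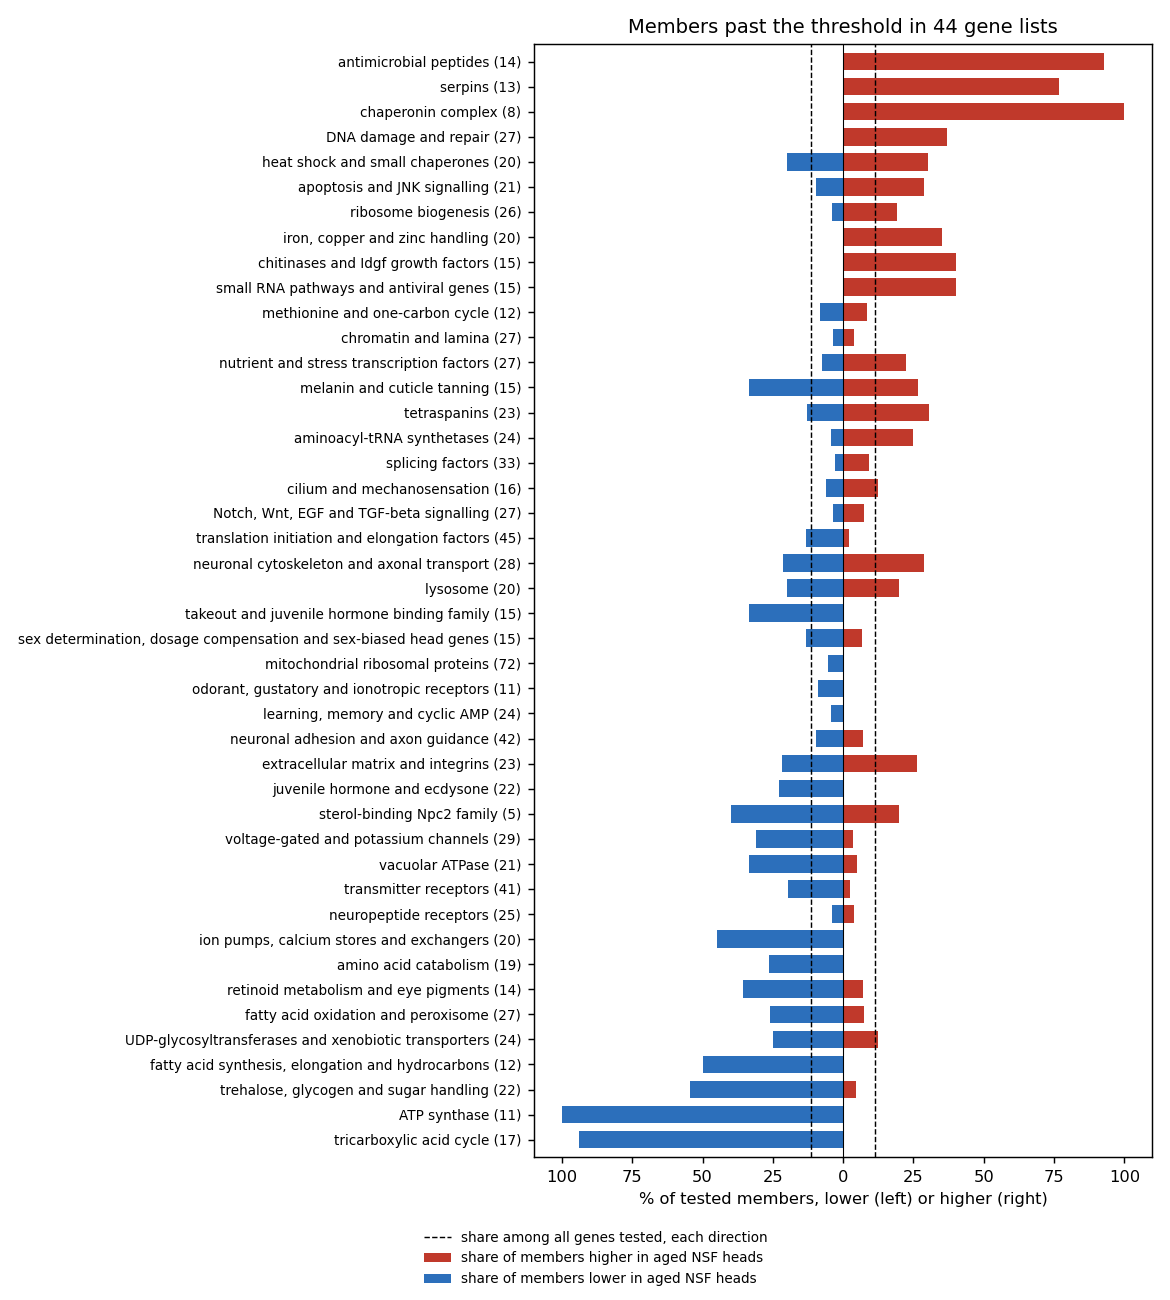
Each row is 1 of 44 gene lists, with the number of members tested in brackets, ordered by median log2 fold change. Bars give the percentage of tested members that passed the test higher (red, right) or lower (blue, left) in aged NSF heads, and dashed lines mark the same shares over all genes tested (11.4% and 11.5%); the chaperonin complex reaches 100% on the right and ATP synthase 100% on the left.

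All tested genes of the cytosolic chaperonin rose in aged NSF heads. The cytosolic chaperonin is a ring of 8 different subunits that folds actin and tubulin, and all 8 of its subunit genes rose, with log2 fold changes of 0.71 to 1.35 and a median of 0.98, beside 11.4% rising and a median of 0.02 over all genes. Its 8 genes together came to 1004 to 1127 CPM in aged NSF heads and 460.2 to 619 CPM in young heads. Tcp-1eta (FBgn0037632, chromosome 3R, 8801564 to 8806234, plus strand) had 91.9, 92.4, 102, 105 and 93.3 CPM in aged NSF heads, against 50.4, 32.8, 28.5, 37.4 and 40.2 CPM in young heads. The lowest aged head lay well above the highest young head (log2 fold change 1.35 ± 0.15 SE, edgeR adjusted p = 2.98e-07). Cctgamma had 145, 154, 118, 145 and 158 CPM in aged NSF heads, against 59.2, 63.6, 58.9, 81.9 and 59.1 CPM in young heads, with young head 4 the highest of its group and still below every aged head (log2 fold change 1.16 ± 0.14 SE, edgeR adjusted p = 1.12e-06). Cct5 (1.28) and T-cp1 (1.17) rose too, in log2 fold change, and neither had groups that overlap.

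Heat shock genes moved in both directions. Of 20 tested members 6 rose and 4 fell (median 0.43), beside 11.4% and 11.5% of all genes. Hsp70Bc, 1 of several near-identical Hsp70 genes whose reads can be lost or split between copies, had 40.97, 37.2, 60.9, 35.9 and 40.0 CPM in aged NSF heads, against 11.6, 6.39, 6.48, 8.60 and 6.56 CPM in young heads. No aged value overlapped a young value (log2 fold change 2.45 ± 0.35 SE, edgeR adjusted p = 3.91e-05). Hsp83, the fly Hsp90, was 1.48-fold higher (log2 fold change 0.57 ± 0.14 SE, edgeR adjusted p = 0.00288), while the Hsp40 co-chaperone gene Droj2 was lower (log2 fold change -0.42 ± 0.11 SE, edgeR adjusted p = 0.00744).

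The machinery that makes proteins did not move as a block. In ribosome biogenesis 5 of 26 genes rose and 1 fell (median 0.40), beside 11.4% and 11.5% of all genes. The core proteins of the small nucleolar RNA particles that modify ribosomal RNA were among the 5. Nop60B, the pseudouridine synthase of such particles, had 33.3, 32.1, 35.4, 38.5 and 52.6 CPM in aged NSF heads, against 7.40, 8.05, 8.42, 18.7 and 12.7 CPM in young heads. All aged heads exceeded all young heads (log2 fold change 1.79 ± 0.28 SE, edgeR adjusted p = 3.46e-05). nop5 had 17.6, 40.6, 34.5, 47.0 and 43.6 CPM in aged NSF heads, against 7.40, 13.3, 3.89, 17.2 and 9.02 CPM in young heads, with aged NSF head 1 only just above young head 4 (log2 fold change 1.81 ± 0.31 SE, edgeR adjusted p = 7.71e-05). Nop56 (0.93) and Nopp140 (0.91) also rose on the log2 scale. The 1 member that fell passed in none of the fits that left out young head 1, 3, 4 or 5 or aged NSF head 1, 2, 3 or 5.

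Of 24 aminoacyl-tRNA synthetases, which load amino acids onto transfer RNAs, 6 rose and 1 fell (median 0.05), beside 11.4% and 11.5% of all genes. Aats-trp had 43.3, 34.1, 41.8, 51.8 and 56.8 CPM in aged NSF heads, against 19.4, 28.3, 25.9, 14.2 and 17.2 CPM in young heads (log2 fold change 1.101 ± 0.22 SE, edgeR adjusted p = 0.000518), and Aats-val (0.74) and Aats-ala (0.77) rose on the log2 scale, all without overlap. Aats-asp rose too (1.40), but it overlaps another gene over 73.5% of its exons. The member that fell lost its call without young head 2, 3 or 5 or without aged NSF head 2, 4 or 5. Of 45 initiation and elongation factors 1 rose and 6 fell, beside 11.4% and 11.5% of all genes, with a median near 0 (-0.00256). The 1 was eIF6, which keeps large ribosomal subunits apart from small ones (log2 fold change 1.18 ± 0.20 SE, edgeR adjusted p = 8.68e-05), and Ef1alpha100E, an elongation factor of neurons and muscle, fell (log2 fold change -0.52 ± 0.13 SE, edgeR adjusted p = 0.00431). Falling factors numbered 1 without young head 4 and 3 without aged NSF head 1, 3 or 4, and rising ones 3 without young head 4 and 2 without young head 1, 2 or 3 or aged NSF head 5. Of 72 mitochondrial ribosomal proteins 0 rose and 4 fell, a share below the 11.5% of all genes, with mRpS9 (log2 fold change -1.04 ± 0.16 SE, edgeR adjusted p = 1.63e-05) leading. Those 4 became 2 without young head 3 or 5 or aged NSF head 2. Of 33 splicing factors 3 rose and 1 fell, and of 27 chromatin and lamina genes 1 rose and 1 fell, beside 11.4% and 11.5% of all genes. LamC, an A-type lamin, was the chromatin and lamina gene that rose (log2 fold change 0.68 ± 0.15 SE, edgeR adjusted p = 0.00112), and that count was 2 or 3 when young head 1, 2, 4 or 5 or aged NSF head 3 or 5 was left out.

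Of 27 tested genes that detect and mend broken DNA 10 rose, 0 fell and 17 did not pass the test (median 0.58), beside 11.4% rising among all genes, and 6 members rose without young head 3. Ku80 and Irbp encode the paired subunits of the Ku ring, which caps DNA ends for end joining. Ku80 (FBgn0041627, chromosome 2L, 15768630 to 15771159, minus strand) had 46.7, 42.6, 34.8, 35.5 and 36.5 CPM in aged NSF heads, against 12.5, 10.3, 5.83, 8.09 and 6.56 CPM in young heads. The lowest aged head was well above the highest young head (log2 fold change 2.15 ± 0.25 SE, edgeR adjusted p = 4.99e-07). Irbp (FBgn0011774, chromosome 3R, 11410047 to 11412440, plus strand) had 28.3, 19.8, 14.5, 23.7 and 22.7 CPM in aged NSF heads, against 3.70, 5.28, 7.77, 6.57 and 9.84 CPM in young heads, also without overlap (log2 fold change 1.72 ± 0.29 SE, edgeR adjusted p = 8.11e-05). The nuclease gene mre11 (log2 fold change 1.31 ± 0.32 SE, edgeR adjusted p = 0.00368) and the stress-induced gene Gadd45 (log2 fold change 1.79 ± 0.27 SE, edgeR adjusted p = 3.12e-05) completed the members with the smallest adjusted p. Summed over the 28 genes of the list the levels were 586 to 718 CPM in aged NSF heads and 440.4 to 479 CPM in young heads.

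The transcription factor genes kay and Jra of the JNK stress pathway rose, while the gene of the kinase they answer to fell. Of 21 tested apoptosis and JNK genes 6 rose and 2 fell (median 0.41), beside 11.4% and 11.5% of all genes. The AP-1 subunits kay (Fos, log2 fold change 0.67 ± 0.13 SE, edgeR adjusted p = 0.000469) and Jra (Jun, log2 fold change 0.72 ± 0.16 SE, edgeR adjusted p = 0.00139) were higher, as were the upstream kinase msn (0.61) and the feedback phosphatase puc (0.54) on the log2 scale. kay stood at 245, 257, 232, 265 and 303 CPM in aged NSF heads, against 198, 184, 166, 116 and 151 CPM in young heads. The lowest aged value exceeded the highest young value. bsk, the JNK kinase itself, was lower, at 110.3, 105, 103.6, 81.1 and 98.6 CPM in aged NSF heads, against 141, 152, 119, 168 and 139 CPM in young heads (log2 fold change -0.53 ± 0.14 SE, edgeR adjusted p = 0.00712), and the Bcl-2 family gene Buffy fell by 0.98 on the log2 scale. Of 27 nutrient and stress transcription factors 6 rose and 2 fell, and 3 rose without aged NSF head 5. The clock factor vri (log2 fold change 1.43 ± 0.17 SE, edgeR adjusted p = 5.8e-07) and CrebA, which drives genes of the secretory route (log2 fold change 1.13 ± 0.28 SE, edgeR adjusted p = 0.00469), led the rising members, and sug fell (log2 fold change -3.54 ± 0.71 SE, edgeR adjusted p = 0.00249).

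Antiviral and small RNA genes rose in 6 of 15 tested cases and fell in 0 (median 0.25), beside 11.4% and 11.5% of all genes. vir-1, a marker of virus infection and of light and immune responses, had 2041, 2139, 2501, 2417 and 2428 CPM in aged NSF heads, against 1012, 739, 984, 1425 and 884 CPM in young heads. The groups did not overlap (log2 fold change 1.19 ± 0.14 SE, edgeR adjusted p = 5.39e-07). pst, which restricts a picorna-like virus, was 1.40-fold higher (log2 fold change 0.49 ± 0.13 SE, edgeR adjusted p = 0.00487), and Hen1, which methylates the ends of small interfering RNAs, was near the limit of detection in young heads (3.83 to 7.40 CPM in aged NSF heads and 0 to 1.94 CPM in young heads; log2 fold change 2.45 ± 0.71 SE, edgeR adjusted p = 0.0124). The autophagy receptor gene ref(2)P overlapped between the groups, with young head 1 above aged NSF head 3 (325 to 436 CPM in aged NSF heads and 156.2 to 330.3 CPM in young heads; log2 fold change 0.61 ± 0.15 SE, edgeR adjusted p = 0.00297).

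**Figure D3:**
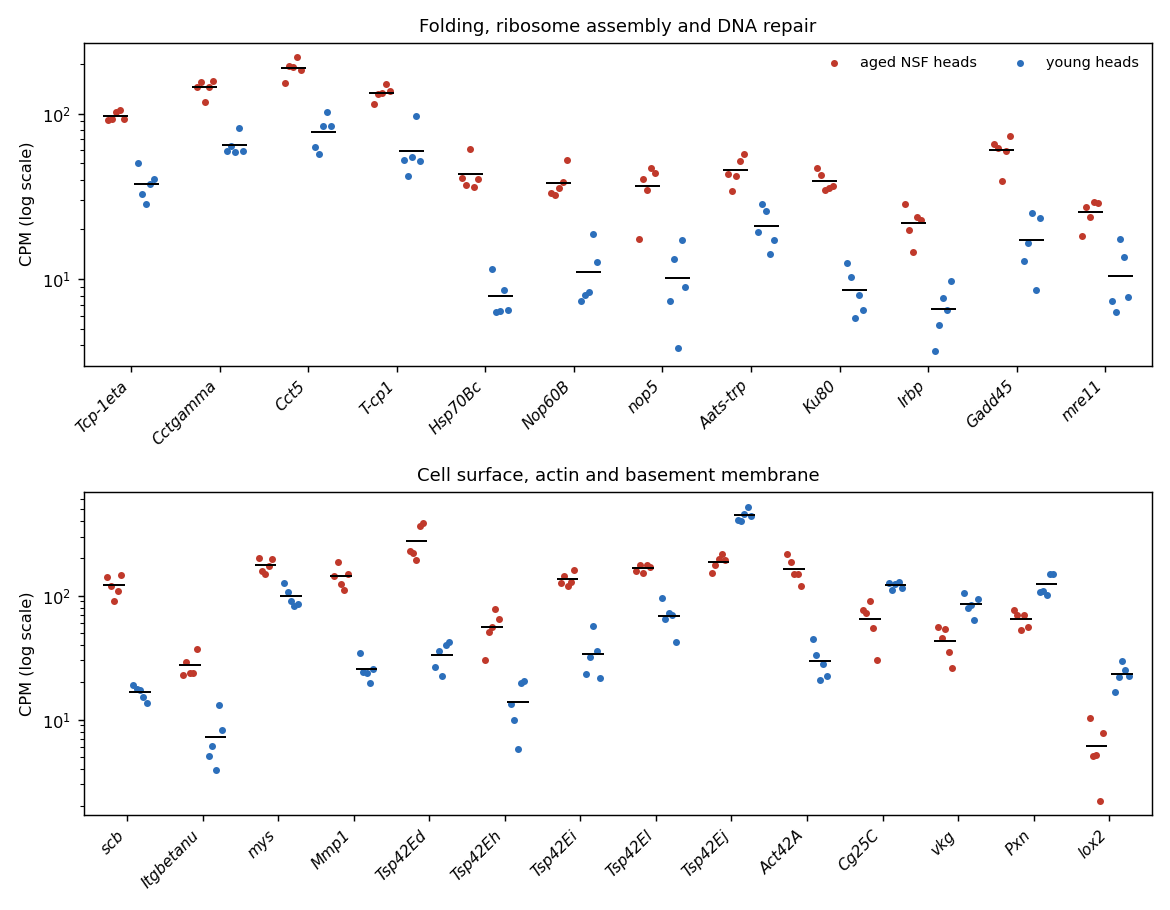
Points are single heads, aged NSF (red, left of each pair) and young (blue, right), with the level in CPM on a log axis and a bar at each group mean (n = 5 each). In the upper panel all 12 genes of folding, ribosome assembly and DNA repair are higher in aged NSF heads; in the lower panel integrins, Mmp1, 4 tetraspanins and Act42A are higher and Tsp42Ej and the basement membrane genes Cg25C, vkg, Pxn and lox2 are lower.

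Several integrin and tetraspanin genes and a matrix protease gene rose. Integrins are pairs of alpha and beta chains that tie cells to the matrix. scb (FBgn0003328), an alpha chain, had 142, 119, 90.2, 108 and 146 CPM in aged NSF heads, against 19.0, 17.8, 17.5, 15.2 and 13.5 CPM in young heads. It shared the third-smallest adjusted p among rising genes with SPH93, and its groups lay far apart (log2 fold change 2.86 ± 0.17 SE, edgeR adjusted p = 3.3e-12). The beta chain gene Itgbetanu had 23.0, 29.3, 23.9, 23.7 and 37.1 CPM in aged NSF heads, against 5.09, 6.11, 3.89, 13.1 and 8.20 CPM in young heads (log2 fold change 1.89 ± 0.29 SE, edgeR adjusted p = 2.66e-05), and the main beta chain mys was 1.78-fold higher (log2 fold change 0.83 ± 0.14 SE, edgeR adjusted p = 6.17e-05). Mmp1, which cuts matrix proteins, had 145, 188, 124, 110.3 and 150.04 CPM in aged NSF heads, against 34.2, 24.2, 24.0, 19.7 and 25.4 CPM in young heads. All aged heads were above every young head (log2 fold change 2.49 ± 0.17 SE, edgeR adjusted p = 2.97e-11).

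Of 23 extracellular matrix and integrin genes 6 rose and 5 fell, beside 11.4% and 11.5% of all genes, and 12 did not pass the test. Among those that fell were 4 genes known from basement membranes or from collagen cross-linking. Both chains of collagen IV, Cg25C (log2 fold change -0.88 ± 0.20 SE, edgeR adjusted p = 0.00192) and vkg (log2 fold change -0.96 ± 0.19 SE, edgeR adjusted p = 0.000482), fell, as did peroxidasin (Pxn, log2 fold change -0.92 ± 0.16 SE, edgeR adjusted p = 8.17e-05) and lysyl oxidase (lox2, log2 fold change -1.93 ± 0.42 SE, edgeR adjusted p = 0.00122), enzymes that cross-link collagen. vkg had 56.3, 45.4, 54.2, 35.2 and 26.3 CPM in aged NSF heads, against 105, 79.4, 84.8, 64.2 and 93.5 CPM in young heads, with aged NSF heads 4 and 5 the lowest. Collagen IV and peroxidasin are made by fat body and blood cells. Summed hemocyte markers (5 genes, Pxn included, none at 0 throughout) came to 92.7 to 151 CPM in aged NSF heads and 142 to 199.7 CPM in young heads. Of the 3 tested 1 fell, and that was Pxn itself (median log2 fold change of the 3 0.0996). Pxn alone averaged 64.99 CPM in aged NSF heads and 123 CPM in young heads. The lower sum is therefore not separate from the fall of Pxn, and whether blood cells were fewer cannot be told from it. The part of fat body and blood cells in the falls was not tested.

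Tetraspanins are small membrane proteins that scaffold receptors, and many of the fly's lie side by side in the Tsp42E cluster on chromosome arm 2R. Of 23 tested members 7 rose and 3 fell, beside 11.4% and 11.5% of all genes, so the falling share was near that of all genes. Tsp42Ed had 230.1, 221, 194, 363 and 383 CPM in aged NSF heads, against 26.4, 35.5, 22.7, 39.9 and 42.2 CPM in young heads. It was 8.26-fold higher without overlap (log2 fold change 3.05 ± 0.21 SE, edgeR adjusted p = 3.61e-10). Its neighbours Tsp42Ei (2.02), Tsp42Eh (1.99) and Tsp42El (1.28) rose as well on the log2 scale. Within the same cluster Tsp42Ej, known from photoreceptor rhodopsin turnover, was lower, with 153, 177, 197, 218 and 195 CPM in aged NSF heads, against 407, 398, 459, 521 and 436 CPM in young heads (log2 fold change -1.24 ± 0.12 SE, edgeR adjusted p = 3.63e-08). Tsp5D (-1.51) and Tsp66E (-0.54) also fell on the log2 scale, and Tsp5D overlapped between groups.

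The cytoplasmic actin genes Act42A and Act5C rose. Of 28 cytoskeleton and transport genes 8 rose and 6 fell, and 3 fell without aged NSF head 3. Act42A had 219, 187, 149, 149.5 and 120.2 CPM in aged NSF heads, against 44.9, 33.3, 20.7, 28.3 and 22.6 CPM in young heads. That is a 5.47-fold difference (log2 fold change 2.45 ± 0.22 SE, edgeR adjusted p = 3.44e-08), whereas its close copy Act5C, far more abundant, was 1.68-fold higher (log2 fold change 0.75 ± 0.11 SE, edgeR adjusted p = 2.22e-05). Among 42 neuronal adhesion genes 3 rose and 4 fell, beside 11.4% and 11.5% of all genes. Fas3 (log2 fold change 1.29 ± 0.19 SE, edgeR adjusted p = 9.96e-06) and Nrg, the fly neuroglian (log2 fold change 0.82 ± 0.13 SE, edgeR adjusted p = 3.11e-05), were higher, and Fas1 was lower (log2 fold change -0.72 ± 0.14 SE, edgeR adjusted p = 0.000303). The 4 became 1 without young head 1 or without aged NSF head 3, 4 or 5, and 2 without young head 2 or 3 or aged NSF head 2. Of 27 Notch, Wnt, EGF and TGF-beta genes 2 rose and 1 fell, led by sty, a feedback inhibitor of receptor kinases (log2 fold change 0.78 ± 0.17 SE, edgeR adjusted p = 0.000982). Its rising count was 1 without young head 4 or 5 or aged NSF head 1 or 3, and no member fell without young head 5.

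Most tested serpins rose, as did some chitin-related genes. Of 13 tested serpins, which trap serine proteases, 10 rose and 0 fell (median 1.20), and 14 further serpin genes had too few reads to test. Spn27A, which holds back the melanization cascade, had 194, 273, 199, 323 and 391.5 CPM in aged NSF heads, against 87.0, 84.7, 106, 103 and 86.1 CPM in young heads. The groups were apart (log2 fold change 1.56 ± 0.17 SE, edgeR adjusted p = 1.28e-07). Spn47C (log2 fold change 1.47 ± 0.16 SE, edgeR adjusted p = 2.17e-07), Spn55B (log2 fold change 1.51) and Spn77Ba (0.98) rose as well. Of 15 chitinase and Idgf genes 6 rose, 0 fell and 9 did not pass the test (median 0.29), beside 11.4% rising among all genes, although 1 fell without young head 3 or aged NSF head 3. Idgf3, a secreted chitinase-like growth factor, had 506, 490.4, 361, 479 and 558 CPM in aged NSF heads, against 142, 154, 156.1, 167 and 192 CPM in young heads (log2 fold change 1.56 ± 0.15 SE, edgeR adjusted p = 2.97e-08). The chitinase gene Cht2 (log2 fold change 2.75 ± 0.43 SE, edgeR adjusted p = 3.19e-05) and the chitin deacetylase gene serp (log2 fold change 1.16 ± 0.24 SE, edgeR adjusted p = 0.00064) were also higher.

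Of 20 genes for storing and moving metals 7 rose and 0 fell (median 0.29), beside 11.4% and 11.5% of all genes. Falling members numbered 2 without young head 3 and 1 without young head 2 or 5 or aged NSF head 3. Tsf2 (FBgn0036299, chromosome 3L, 12530436 to 12533724, minus strand), a membrane-bound transferrin of epithelia, had 129, 113, 87.2, 113 and 96.2 CPM in aged NSF heads, against 29.1, 32.2, 40.2, 31.9 and 33.6 CPM in young heads. Its aged and young ranges were widely separated (log2 fold change 1.69 ± 0.15 SE, edgeR adjusted p = 4.73e-09). Tsf3 (log2 fold change 1.49 ± 0.24 SE, edgeR adjusted p = 3.72e-05) and the mitochondrial iron importer gene mfrn (log2 fold change 0.77 ± 0.17 SE, edgeR adjusted p = 0.00141) were higher. The metallothionein gene MtnD, which binds copper, had 7.27, 6.82, 8.18, 78.8 and 44.8 CPM in aged NSF heads, against 6.94, 1.67, 3.24, 3.54 and 4.10 CPM in young heads. Aged NSF heads 4 and 5 were far above the other aged heads, the lowest of which lay just below young head 1 (log2 fold change 2.91 ± 0.77 SE, edgeR adjusted p = 0.0142).

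Lysosomal genes were split, 4 rising and 4 falling of 20, beside 11.4% and 11.5% of all genes. The falling ones numbered 2 without young head 1 or 4 or aged NSF head 4. The protease gene cathD had 1119, 1175, 1318, 1289.9 and 1362 CPM in aged NSF heads, against 647, 550.2, 719.6, 854 and 589 CPM in young heads, without overlap (log2 fold change 0.90 ± 0.12 SE, edgeR adjusted p = 5.76e-06), and the thiol reductase gene GILT1 was 1.94-fold higher (log2 fold change 0.96 ± 0.13 SE, edgeR adjusted p = 5.88e-06). The proton pump that acidifies lysosomes and synaptic vesicles, the vacuolar ATPase, had 1 rising and 7 falling of 21 genes (median -0.22). The catalytic subunit gene Vha68-1 (FBgn0265262, chromosome 2L, 13000770 to 13004107, minus strand) had 249.6, 286, 238, 195 and 207 CPM in aged NSF heads, against 449, 473, 471, 467 and 517 CPM in young heads. Young heads were close to each other, and all aged heads lay below them (log2 fold change -1.01 ± 0.12 SE, edgeR adjusted p = 5.84e-07). Vha55 was lower too (log2 fold change -0.67 ± 0.13 SE, edgeR adjusted p = 0.000325). Without aged NSF head 5, 2 of the list rose.

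Nearly all genes of the citric acid cycle fell, whereas most genes of fatty acid oxidation and amino acid breakdown did not pass the test. Of the 17 genes of the cycle 16 fell and 0 rose, beside 11.5% and 11.4% of all genes. Their median was -0.85, beside 0.02 over all genes, and leaving out any 1 head gave 15 or 16 that fell. kdn (FBgn0261955, chromosome X, 6350629 to 6361323, plus strand), the citrate synthase that feeds acetyl groups into the cycle, had 389, 344, 331, 275 and 346 CPM in aged NSF heads, against 874, 825, 996, 1148 and 1031 CPM in young heads. Every aged head was under every young head by a wide margin (log2 fold change -1.53 ± 0.13 SE, edgeR adjusted p = 1.83e-09). l(1)G0156 and CG5028, named Idh3a and Idh3g in the current annotation and encoding subunits of isocitrate dehydrogenase, fell by 1.001 and 0.85 on the log2 scale. Mdh2, malate dehydrogenase, had 432, 409.9, 528, 377 and 328 CPM in aged NSF heads, against 777, 718, 797, 1008 and 856 CPM in young heads (log2 fold change -1.001 ± 0.14 SE, edgeR adjusted p = 9.78e-06). All 11 tested ATP synthase genes fell (median -0.82), ATPsyn-gamma (log2 fold change -1.16 ± 0.14 SE, edgeR adjusted p = 1.09e-06) and ATPsyn-beta (log2 fold change -0.81 ± 0.12 SE, edgeR adjusted p = 1.59e-05) among them.

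Of 22 sugar-handling genes 12 fell and 1 rose (median -0.63), beside 11.5% and 11.4% of all genes. Gpdh, the glycerol-3-phosphate dehydrogenase that shuttles reducing power into mitochondria, had 225, 223, 337, 211 and 209.8 CPM in aged NSF heads, against 702, 621, 987, 1165 and 849 CPM in young heads (log2 fold change -1.84 ± 0.20 SE, edgeR adjusted p = 8.56e-07), and it overlaps another gene over 22.1% of its exons. Glycogen phosphorylase (GlyP, log2 fold change -1.20 ± 0.16 SE, edgeR adjusted p = 3.18e-06) and the trehalose transporter gene Tret1-1 (log2 fold change -0.83 ± 0.15 SE, edgeR adjusted p = 0.000242) were lower. The 1 that rose was the sugar transporter gene sut2, at 16.8, 10.6, 15.1, 12.2 and 10.8 CPM in aged NSF heads, against 0.463, 0, 1.30, 4.55 and 0.410 CPM in young heads (log2 fold change 3.40 ± 0.60 SE, edgeR adjusted p = 0.000138). Aged and young heads did not overlap in any of these 4 genes. AkhR, the receptor of the adipokinetic hormone that mobilises sugar and fat, had 9.19, 8.87, 13.02, 5.92 and 4.78 CPM in aged NSF heads, against 87.4, 34.2, 31.7, 30.8 and 28.7 CPM in young heads. Young head 1 was the highest of all, and the other young heads still exceeded every aged head (log2 fold change -2.31 ± 0.43 SE, edgeR adjusted p = 0.000671).

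Of 12 tested lipid synthesis genes 6 fell and 0 rose (median -0.55). Without young head 1, 4 fell and 1 rose. CG3523, the fatty acid synthase FASN1 of the current annotation, had 375, 364, 576, 355 and 262 CPM in aged NSF heads, against 1855, 1578, 2025, 1772 and 1719 CPM in young heads. It was 4.63-fold lower in aged NSF heads (log2 fold change -2.21 ± 0.26 SE, edgeR adjusted p = 1.71e-05). The desaturase gene Desat1 was lower as well, at 1018 ± 187 CPM in aged NSF heads and 2067 ± 219 CPM in young heads (SD, n = 5 each). Fatty acid oxidation and peroxisome genes fell in 7 and rose in 2 of 27 cases, beside 11.5% and 11.4% of all genes, a count that moved between 4 falling without aged NSF head 2 and 12 without young head 2. The rising ones numbered 0 without aged NSF head 3 and 1 without any other head but aged NSF head 2. In amino acid breakdown 5 of 19 genes fell, 0 rose and 14 did not pass the test. Gdh (FBgn0001098, chromosome 3R, 23935958 to 23943101, minus strand), the mitochondrial glutamate dehydrogenase, had 482, 469.9, 394, 359 and 359 CPM in aged NSF heads, against 819, 857, 922, 889 and 790.3 CPM in young heads, with all aged heads under all young heads (log2 fold change -1.05 ± 0.12 SE, edgeR adjusted p = 3.23e-07). The proline dehydrogenase gene slgA was lower too (log2 fold change -0.84 ± 0.13 SE, edgeR adjusted p = 3.51e-05). Of 12 genes of the methionine and one-carbon cycle 1 rose and 1 fell, beside 11.4% and 11.5% of all genes. No member rose without aged NSF head 4, 2 rose without young head 3, and none fell without young head 1, 3 or 5 or aged NSF head 1, 2, 4 or 5.

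Muscle and fat body genes moved with these falls. Summed muscle markers (5 genes) came to 1428 to 1735 CPM in aged NSF heads and 2833 to 3831 CPM in young heads, and all 5 fell, Mhc (log2 fold change -1.34 ± 0.15 SE, edgeR adjusted p = 1.89e-07) and Mlc2 (log2 fold change -1.18 ± 0.14 SE, edgeR adjusted p = 3.87e-07) with the smallest adjusted p. up (-0.78), wupA (-0.79) and Act88F (-2.26) are the others, in log2 fold change. Summed head fat body markers (5 genes, none at 0 throughout) came to 808 to 2488 CPM in aged NSF heads and 3830.2 to 6926 CPM in young heads, and 2 of the 3 tested fell. Aged NSF heads 4 and 5 had the lowest fat body sums, 1029 and 808 CPM. The part of either tissue in the falls of fuel genes was not tested. The plot of fuel genes by fly sets both kinds of gene side by side.

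**Figure D4:**
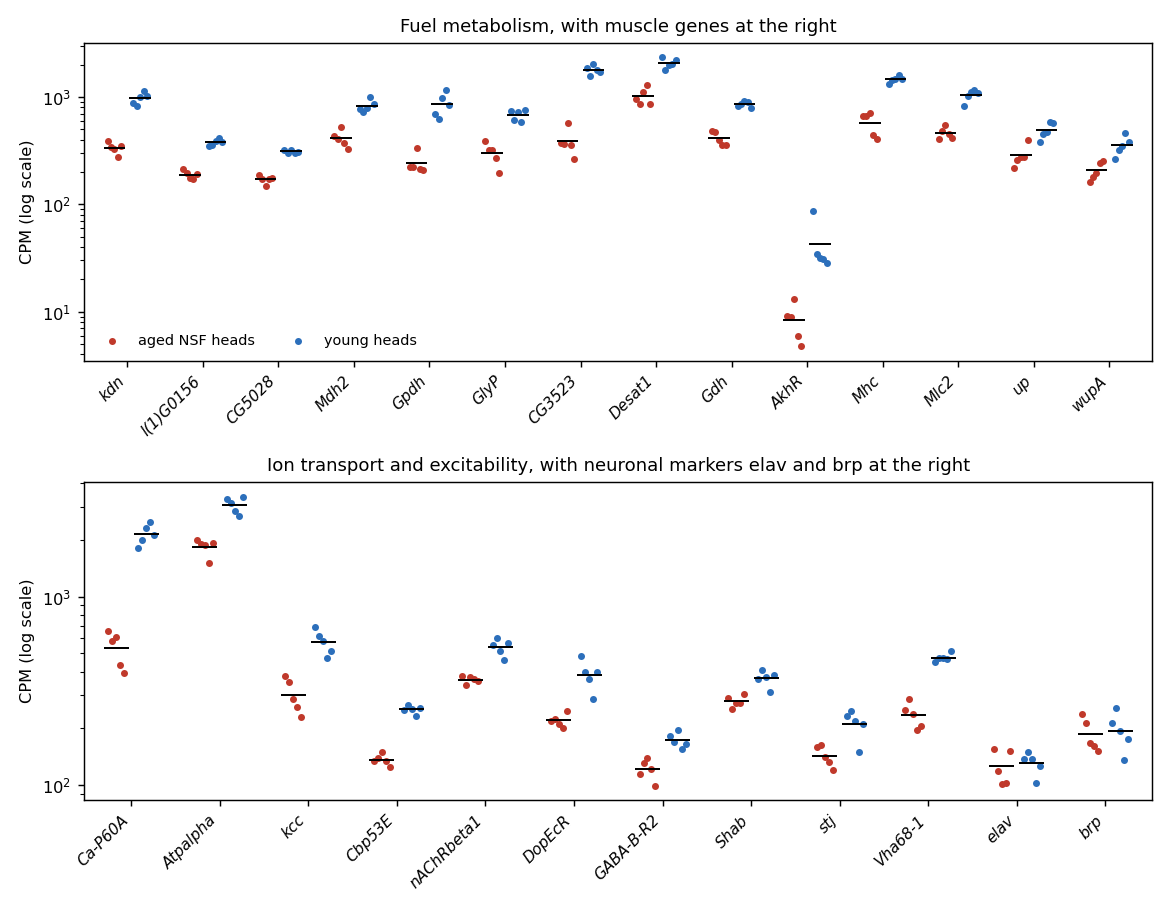
Points are single heads, aged NSF (red, left of each pair) and young (blue, right), with the level in CPM on a log axis and a bar at each group mean (n = 5 each). In the upper panel the 10 genes of fuel use and the 4 muscle genes are lower in aged NSF heads. In the lower panel 10 genes of ion transport and excitability are lower, while the neuronal markers elav and brp overlap between the groups. Of the 5 neuronal markers 2 fell and 0 rose, and the 2 that fell are not drawn.

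Ion pumps and calcium stores keep membranes ready to fire and muscles ready to relax. Of 20 such genes 9 fell and 0 rose (median -0.31), beside 11.5% and 11.4% of all genes. Without young head 4, 1 rose. Ca-P60A (FBgn0263006, chromosome arm 2R), the calcium pump SERCA of the endoplasmic and sarcoplasmic reticulum, had 657, 579, 611, 433 and 393 CPM in aged NSF heads, against 1815, 1989, 2328, 2494 and 2136 CPM in young heads. It had the smallest adjusted p of all genes that fell (log2 fold change -2.01 ± 0.14 SE, edgeR adjusted p = 9.43e-11). Muscle holds much SERCA, and the muscle sums above moved with it, and the part of muscle was not tested. Atpalpha (FBgn0002921, chromosome 3R, 20948714 to 20976239, plus strand), the catalytic chain of the sodium-potassium pump, had 1999.8, 1907, 1873, 1503 and 1936 CPM in aged NSF heads, against 3308, 3126, 2866, 2674 and 3397 CPM in young heads (log2 fold change -0.74 ± 0.12 SE, edgeR adjusted p = 3.02e-05). The potassium-chloride cotransporter gene kcc was 1.91-fold lower (log2 fold change -0.94 ± 0.14 SE, edgeR adjusted p = 1.54e-05), and the neuronal calcium buffer gene Cbp53E had 134, 138, 150.5, 134 and 125 CPM in aged NSF heads, against 249, 267, 254, 233 and 255.1 CPM in young heads (log2 fold change -0.88 ± 0.11 SE, edgeR adjusted p = 2.04e-06). No aged value of these 3 genes reached a young one.

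Some receptors and channels of neurons fell, and most did not pass the test. Of 41 transmitter receptors 8 fell and 1 rose (median -0.23), beside 11.5% and 11.4% of all genes, with 2 rising without aged NSF head 1. DopEcR, a receptor for dopamine and ecdysone, had 219, 224, 211, 201 and 246 CPM in aged NSF heads, against 482, 398, 364, 285 and 397 CPM in young heads (log2 fold change -0.81 ± 0.13 SE, edgeR adjusted p = 3.45e-05). nAChRbeta1, a subunit of the main excitatory receptor of the fly brain, had 377, 339.6, 374, 366 and 355 CPM in aged NSF heads, against 551, 605, 518, 464 and 568 CPM in young heads (log2 fold change -0.58 ± 0.11 SE, edgeR adjusted p = 0.000433). GABA-B-R2 (log2 fold change -0.51 ± 0.12 SE, edgeR adjusted p = 0.00285) and the serotonin receptor gene 5-HT1A (log2 fold change -0.75 ± 0.19 SE, edgeR adjusted p = 0.00358) were lower, the last with overlap. The 1 that rose, nAChRbeta3 (2.21), has exons that all overlap another gene, counted on either strand, so its reads may not be its alone. Of 29 channels 9 fell and 1 rose (median -0.20), and 5 fell without young head 1 or 2 or aged NSF head 4. Shab, a delayed-rectifier potassium channel, was lower without overlap (log2 fold change -0.41 ± 0.12 SE, edgeR adjusted p = 0.012), and stj, a calcium channel subunit, with overlap (log2 fold change -0.56 ± 0.14 SE, edgeR adjusted p = 0.00465).

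These falls were not shared by every neuronal gene. elav, which marks neurons, had 155, 118, 101, 102 and 151 CPM in aged NSF heads, against 137, 149.7, 138, 103 and 125 CPM in young heads, and its groups overlapped (log2 fold change -0.06 ± 0.15 SE, edgeR adjusted p = 0.823). brp, of the presynaptic active zone, likewise overlapped (log2 fold change -0.06 ± 0.16 SE, edgeR adjusted p = 0.831). Of the 5 neuronal markers 2 fell, both among nSyb, Syt1 and Appl, and 0 rose (median -0.06). Of 24 learning and cyclic AMP genes 0 rose and 1 fell, and of 25 neuropeptide receptors 1 rose and 1 fell. Only 11 of 186 chemoreceptor genes could be tested, of which 0 rose and 1 fell. Over all genes the shares were 11.4% and 11.5%. AkhR was the neuropeptide receptor that fell, joined by another without young head 1 or 5 or aged NSF head 1, 3 or 5, and the rising one kept its call only without young head 3. Falling learning genes numbered 0 without young head 1 and 2 without young head 4 or 5 or aged NSF head 2, and 2 chemoreceptors fell without aged NSF head 3. Of 16 genes of sensory cilia 2 rose, rempA (log2 fold change 0.88 ± 0.14 SE, edgeR adjusted p = 3.43e-05) and the heat-sensing channel gene pain (log2 fold change 0.96 ± 0.15 SE, edgeR adjusted p = 3.9e-05), and 1 fell. That was eys, which keeps the photoreceptor membranes of the compound eye apart, with 143, 166, 101, 118 and 154 CPM in aged NSF heads, against 235, 429.6, 396, 255.3 and 313 CPM in young heads (log2 fold change -1.26 ± 0.17 SE, edgeR adjusted p = 5.24e-06). Of 6 glial markers 3 fell and 1 rose (median -0.27), and summed glial markers came to 905 to 1424 CPM in aged NSF heads and 1389 to 1789.7 CPM in young heads. The 1 that rose was moody, a receptor of the blood-brain barrier (log2 fold change 1.14 ± 0.21 SE, edgeR adjusted p = 0.00029).

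Eye pigment genes were lower in part, in flies that lack white, a transporter of pigment precursors. Of 14 retinoid and pigment genes 5 fell and 1 rose (median -0.41), beside 11.5% and 11.4% of all genes. Without aged NSF head 2, 2 rose and 4 fell. se (FBgn0086348, chromosome 3L, 8520552 to 8521489, plus strand), an enzyme of red drosopterin synthesis, had 16.8, 22.5, 18.2, 36.6 and 60.4 CPM in aged NSF heads, against 135, 162, 189, 224 and 167 CPM in young heads. Aged heads 4 and 5 were the highest of their group and still below every young head (log2 fold change -2.54 ± 0.39 SE, edgeR adjusted p = 0.000347). pr (log2 fold change -1.07 ± 0.22 SE, edgeR adjusted p = 0.000688), which acts earlier in pteridine synthesis, and bw (log2 fold change -1.82 ± 0.35 SE, edgeR adjusted p = 0.00103) and st (-1.33 in log2 fold change), transporters that pair with white, also fell. st lost its call without aged NSF head 2 (adjusted p = 0.0506 by edgeR). Photoreceptor genes did not all follow: ninaE, the main rhodopsin, had 19918, 19109, 14879, 15881 and 16697 CPM in aged NSF heads, against 32189.5, 17316, 20748, 21354 and 19712 CPM in young heads, with overlap (log2 fold change -0.36 ± 0.14 SE, edgeR adjusted p = 0.0665), and the light-gated channel gene trp overlapped too (log2 fold change 0.01 ± 0.12 SE, edgeR adjusted p = 0.981). These 2 were the exceptions: of the 6 photoreceptor markers the other 4, ninaC, norpA, Arr1 and Arr2, fell, and 0 rose (median -0.46). Arr2 was among the 5 falling genes with the largest loss in CPM.

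Genes of tyrosine-derived pigments and amines changed in opposite directions within 1 pathway. Of 15 tested members 4 rose and 5 fell, beside 11.4% and 11.5% of all genes. Ebony (e), which joins beta-alanine to dopamine and histamine, had 164, 183, 113, 213 and 262 CPM in aged NSF heads, against 19.0, 40.0, 20.7, 47.0 and 43.5 CPM in young heads. The groups were apart (log2 fold change 2.44 ± 0.25 SE, edgeR adjusted p = 1.38e-06). Tan (t), which reverses that reaction, had 192, 201, 139, 123 and 116 CPM in aged NSF heads, against 377, 314, 325, 248 and 260.0 CPM in young heads and was lower, again without overlap (log2 fold change -0.98 ± 0.18 SE, edgeR adjusted p = 0.000234). The tyrosine hydroxylase gene ple, which starts dopamine synthesis, had 435, 445, 156.2, 148 and 247 CPM in aged NSF heads, against 62.9, 72.2, 47.9, 112 and 51.3 CPM in young heads (log2 fold change 2.05 ± 0.35 SE, edgeR adjusted p = 0.000851). Aged NSF heads 1 and 2 were the highest. Dat, an amine acetyltransferase, fell, with 90.4 ± 20.5 CPM in aged NSF heads and 238 ± 67.8 CPM in young heads (SD, n = 5 each; log2 fold change -1.39 ± 0.20 SE, edgeR adjusted p = 1.59e-05). yellow-b was higher (log2 fold change 1.43 ± 0.24 SE, edgeR adjusted p = 6.46e-05).

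**Figure D5:**
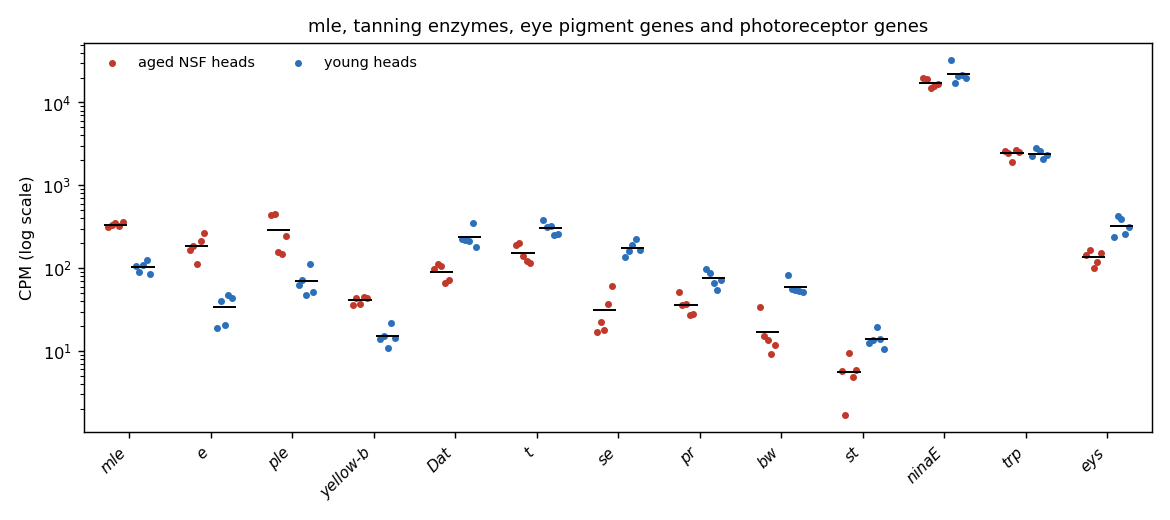
Points are single heads, aged NSF (red, left of each pair) and young (blue, right), with the level in CPM on a log axis and a bar at each group mean (n = 5 each). mle, e, ple and yellow-b are higher in aged NSF heads; Dat, t, se, pr, bw, st and eys are lower, and ninaE and trp overlap between the groups.

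Genes of hormone turnover and lipid carriers fell in part. The shares to set beside each list here are 11.4% rising and 11.5% falling over all genes. Of 22 juvenile hormone and ecdysone genes 5 fell and 0 rose, with 1 rising without young head 5. Cyp18a1, which inactivates ecdysone, had 2.68, 4.09, 5.45, 3.70 and 3.59 CPM in aged NSF heads, against 18.04, 13.3, 21.4, 10.6 and 19.7 CPM in young heads (log2 fold change -2.06 ± 0.44 SE, edgeR adjusted p = 0.000943). The juvenile hormone epoxide hydrolases Jheh1 (-0.85), Jheh2 (-0.96) and Jheh3 (-1.33) fell on the log2 scale. Most of their exonic sequence overlaps other genes on either strand (all of Jheh1, 91.6% of Jheh2 and 49.5% of Jheh3). Their reads may therefore not be fully separated. The takeout family fell in 5 of 15 cases and rose in 0, with 1 rising without young head 2 or aged NSF head 2. Npc2 sterol-binding genes rose in 1 and fell in 2 of 5, 1 falling without young head 4 or 5 or aged NSF head 1 or 2. Glycosyltransferases and xenobiotic transporters rose in 3 and fell in 6 of 24, with 3 falling without young head 4 or aged NSF head 4. CG10178, named Ugt301D1 in the current annotation, was 6.42-fold lower (log2 fold change -2.68 ± 0.35 SE, edgeR adjusted p = 1.39e-05), CG18869 (Ugt305A1) was near the limit of detection in young heads (2.39 to 10.6 CPM in aged NSF heads and 0 to 0.555 CPM in young heads), and the organic anion transporter gene Oatp58Dc was lower (log2 fold change -1.46 ± 0.21 SE, edgeR adjusted p = 8.69e-06).

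mle (FBgn0002774, chromosome arm 2R), the RNA helicase of the complex that raises transcription of the male X chromosome, had 312, 335, 348, 324 and 365 CPM in aged NSF heads, against 105, 89.1, 109, 125 and 85.7 CPM in young heads. The lowest aged head was far above the highest young head, a 3.28-fold difference (log2 fold change 1.71 ± 0.13 SE, edgeR adjusted p = 1.23e-10). It was the only member of 15 sex determination, dosage compensation and sex-biased head genes to rise, and 2 fell, beside 11.4% and 11.5% of all genes. sxe2, a male-enriched lipase-like gene of the fat body, was 1 of them, with 136, 144, 198, 45.5 and 25.1 CPM in aged NSF heads, against 519, 467, 409, 530.4 and 331 CPM in young heads (log2 fold change -2.03 ± 0.51 SE, edgeR adjusted p = 0.0118). Aged NSF heads 4 and 5, low in fat body markers, were its lowest. The other was the dosage compensation gene roX2, which thus moved opposite to mle. It lost its call, leaving 1, without young head 1 or 2 or aged NSF head 2 or 4. The 9.37% of X-linked genes that rose and 10.9% that fell were close to the shares over all genes.

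A few genes were present in every young head and all but missing at 25 days. Averaging 10 CPM or more in young heads and below the limit of detection in aged NSF heads was true of 4 genes, a criterion set after the values were seen. CG8329 had 4 reads in all aged NSF heads together and 21638 in young heads, CG9676 had 2 and 8451, CG11211 had 1 and 3265, and CG7829 had 0 and 1331. CG8343, just outside the criterion, had 0, 0.341, 2.73, 1.11 and 1.20 CPM in aged NSF heads, against 905, 4091, 3384, 1969 and 2879 CPM in young heads. CG30033, by adjusted p the second gene among those that fell, had 0.766, 1.36, 2.73, 2.22 and 2.39 CPM in aged NSF heads, against 67.5, 40.3, 75.1, 119.8 and 55.4 CPM in young heads (log2 fold change -5.20 ± 0.39 SE, edgeR adjusted p = 3.27e-10). Young heads 1 and 4 were the lowest of their group in CG8343, while CG30033 was highest in young head 4. The 4 genes were rare elsewhere: aged SF heads held 7, 1, 1 and 0 reads of them, in the order above, and young bodies averaged 0.112, 0.468, 0.229 and 0.0745 CPM. Summed midgut markers reached at most 4.98 CPM in aged NSF heads and 6.48 CPM in young heads.

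Whether heads aged in the same way as bodies was asked with the difference between both log2 fold changes in a fit of all 30 libraries. It passed for 1622 of 12318 genes (13.2%), 534 higher in heads (4.34%) and 1088 lower (8.83%). The direction depended on the scaling between tissues: with RLE factors 833 were higher and 534 lower, as the median over all genes was 0.12 instead of -0.09, and with DESeq2 1264 were higher and 746 lower. Without young body 2, 3 or 5 the split was 749 to 381, 674 to 317 and 801 to 401, and without aged NSF body 3 it was 905 to 481. Aged NSF body 2 held 377 CPM of the rhodopsin gene ninaE, against 4.82 to 13.3 CPM in the other aged NSF bodies and 4.79 to 12.7 CPM in young bodies, and without it the split was 529 to 1060.

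The 6 genes with the smallest adjusted p for this difference passed in each of the 26 alternatives run, with log2 differences that kept their sign. mle had a log2 fold change of 1.71 in heads of that fit and -0.10 ± 0.14 (SE) in bodies, a difference of 1.81 ± 0.20 (edgeR adjusted p = 1.59e-06; range 1.75 to 2.13). CG44774 (FBgn0266000, chromosome X, 4926664 to 4938105, minus strand), which overlaps another gene over 34.9% of its exons, had 486, 420.1, 517, 699 and 491 CPM in aged NSF heads, against 119, 119, 104.3, 71.3 and 103 CPM in young heads, while bodies differed by -0.14 ± 0.19 (difference 2.47 ± 0.27, edgeR adjusted p = 1.59e-06). CG42675 was 3.44-fold higher in aged NSF heads and lower in aged NSF bodies (-0.92 ± 0.20; difference 2.69 ± 0.30, edgeR adjusted p = 1.59e-06). laza, a phosphatase of lipid signalling known from photoreceptors, had 24.1, 30.7, 33.3, 30.4 and 30.5 CPM in aged NSF heads, against 121, 98.6, 83.6, 60.7 and 70.5 CPM in young heads, and was higher in aged NSF bodies (1.24 ± 0.23; difference -2.79 ± 0.32, edgeR adjusted p = 2.36e-06). The mitochondrial gene mt:ND5 fell in heads (log2 fold change -0.83, a call lost without young head 4 or aged NSF head 1, 3 or 4, with groups that overlap) and was higher in aged NSF bodies (1.79 ± 0.22; difference -2.62 ± 0.30, edgeR adjusted p = 2.4e-06). For CG8343 the difference was -14.25 ± 1.31 (edgeR adjusted p = 3.13e-07), a size that depends on near-zero counts and is no bound, and -12.78 without aged NSF body 2.

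Aged flies with fragmented sleep were set against the same young heads, so their values are given only side by side. scb averaged 113 ± 13.6 CPM in aged SF heads and Ku80 30.1 ± 8.79 CPM (SD, n = 5), mle 313 ± 22.9, Tcp-1eta 90.3 ± 7.28 and kdn 326 ± 31.1 CPM. In aged NSF heads the means of scb, Ku80, mle, Tcp-1eta and kdn were 121, 39.2, 337, 96.9 and 337 CPM. The aged groups were farther apart in some other genes named above. The gene sug averaged 26.7 ± 20.5 CPM in aged SF heads and 2.89 ± 1.19 CPM in aged NSF heads (SD, n = 5 each). In the same order, Lsp1beta averaged 127 ± 86.1 and 18.7 ± 18.2 CPM and AkhR 24.5 ± 13.3 and 8.36 ± 3.22 CPM. SPH93 averaged 318 ± 120.1 and 113 ± 13.9 CPM. No test of a difference between the aged groups was made here.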

How the data were processed

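Single heads and bodies of male flies were sequenced as poly(A) RNA. Per the series' design text the authors trimmed adapters with Trimmomatic, mapped reads to dm6 with STAR, kept primary alignments of mapping quality 8 or more, and counted exonic reads with HTSeq, as the submitters' processing notes also name; versions, strandedness and the gene models are not given in the sources used here. Reads that map equally well to near-identical genes have a low mapping quality, so such genes can be undercounted. The labels name a nuclear RNA library protocol although total RNA was extracted from whole heads. The deposited table holds raw counts per gene. Of the authors' deposited DESeq2 table only the number and sign of the log2 values, listed at q values up to 0.05, were used, because gene names stand beside 101 of its rows.

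Counts were tested with edgeR 4.0.16 (R 4.3.3): TMM factors, filterByExpr by group, a joint quasi-likelihood fit (robust) to all 15 heads, and a contrast of aged NSF over young. A gene is called at a Benjamini-Hochberg adjusted p under 0.05 over all 9088 genes. Head and body ageing were compared as an interaction in all 30 libraries. The labels name separate flies but no vials, and all carry 1 batch label, so p-values measure the spread between these flies. Aged NSF and young heads of equal replicate number had low correlations of their deviations (-0.01 to 0.15), and no pairing was used. Nothing in the sources says whether a head and a body of equal number come from the same fly. That was not checked, and the fit of all 30 libraries treats them as independent. No library was a copy of another (lowest chi-square per degree of freedom 4.50). The fit was tested on simulated data.

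Genes named are the 10 with the largest change in each direction with at least 10 CPM and a name, the 5 with the largest CPM difference, the 3 with the smallest adjusted p, up to 4 per direction and list by adjusted p, the 6 with the smallest adjusted p for the head-body difference, and markers. Of these 281 genes the text gives values for a selection made with their values in view. CG8329, CG9676, CG11211, CG7829 and w were chosen outside this rule. The comparison, the 44 gene lists (1342 genes, 980 tested, which hold 313 of the called genes) and the rule were chosen with earlier results of these data known; 8 members had no match in the count table. Lists are described by counts and medians without a test. Coordinates are dm6 and come with current symbols from an Ensembl gene annotation, where 17253 IDs matched. Overlap with other genes was counted over exons of that annotation on either strand. No sequence is printed. Alternatives were RLE scaling, no filter, a stricter filter (5 CPM or more in 5 or more libraries), a 2-fold minimum, DESeq2 1.42.0, only the compared groups, a replicate block, and leaving out each library.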

Additional observations from a re-analysis of the deposited data

Results flagged for a closer look

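Among 151 of the genes named, in 2 groups of 5 heads each, 20 of 302 groups held a head far from the other 4 by Dixon's criterion, and chance gives about 1 in 20. Aged NSF head 3 stood apart in 4: it was the highest for Hsp70Bc (60.9 CPM) and Gpdh (337 CPM) and the lowest for trp (1891 CPM) and vri (71.5 CPM). Aged NSF head 4 was the lowest for Atpalpha (1503 CPM) and aged NSF head 1 the highest for bw (34.5 CPM). Young head 4 was the highest for Cpr72Ec (412 CPM), tobi (828 CPM), Cctgamma (81.9 CPM), T-cp1 (96.1 CPM), sut2 (4.55 CPM) and Dat (355 CPM) and the lowest for pain (40.5 CPM). Young head 1 was the highest for AkhR (87.4 CPM), ninaE (32189.5 CPM) and bw (83.3 CPM), and young head 5 for Nplp3 (1068 CPM). For SPH93 (0.410 CPM in young head 5) and CG18869 (0.555 CPM in young head 2) the value is that of few reads among heads with none, as it is for w (0.370 CPM in aged NSF head 4).

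The age effect differed between heads and bodies, by the test of the difference itself, in CG8343 (log2 difference -14.25), CG44774 (2.47), mle (1.81), CG42675 (2.69), laza (-2.79) and mt:ND5 (-2.62). These 6 were picked as the genes with the smallest adjusted p for that test.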

How the results depend on the processing

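The count of 2075 genes that differed between aged NSF and young heads was 2071 with RLE scaling, 2027 without a filter, 2065 with the stricter filter, 2285 with DESeq2 and 1832 with only the compared groups. It ranged from 1732 to 2020 when 1 head was left out, and the 2-fold minimum kept 883. With the replicate number as a block it was 2234 (1103 higher, 1131 lower). Of 5 aged NSF heads 2 correlated best with the young head of their own number. Whether equal numbers share a vial or day is not stated, and so few heads cannot settle it. The count for the difference between head and body ageing, 1622, was 964 with the 2-fold minimum, 909 with only the compared groups and 1906 with the block, and ranged from 991 to 1885 when 1 library was left out, the lowest without young body 3. Of the 250 genes picked by the naming rule that passed, 208 passed in every alternative that tested them, 42 lost the call in at least 1 and 0 reversed. Apart from roX2 and the markers named without values, those in the text lean to the stable ones: st lost its call in 1 alternative and mt:ND5 in 6 (adjusted p up to 0.0826), and the remaining 143 kept it in all 16. Of the 44 lists 14 kept both counts within 1.5 times in all alternatives, among them the chaperonin, citric acid cycle, ATP synthase, serpin and tetraspanin lists, and 12 changed the sign of a median near 0. The cause of these shifts was not tested. Genes of few CPM are limited by depth, since 3 reads already equal 0.834 to 1.78 CPM before TMM scaling.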
